A study of Mus musculus with 23 samples.

Results

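Both mature arms of miR-126a, mmu-miR-126a-3p and mmu-miR-126a-5p, were followed in mouse liver. They were chosen by name and are 2 of the 1218 mature miRNAs counted in this study. Both were detected in all 23 libraries and both passed the filter on low counts, as did 386 miRNAs in all.

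Small RNA was sequenced from the liver of 23 male C57bl/6J mice of the third generation of a dietary breeding study, with 1 library per mouse. The reference group (STD_Cont, n = 8) came from the control lineage, whose growing diet was supplemented with high-oleic sunflower oil, and was then given a low-fat diet. The HFoleic group (HFD_Cont, n = 8) came from that same lineage and was given a high-fat, high-sucrose diet. The HFepa group (HFD_O3, n = 7) came from the n-3PUFA lineage, bred on fish oil rich in eicosapentaenoic acid (EPA), and was given the same high-fat, high-sucrose diet. HFoleic vs. reference therefore compares diets within a lineage, HFepa vs. HFoleic compares lineages on a diet, and HFepa vs. reference differs in both. No group of the EPA lineage on the low-fat diet was analysed here. All mice were fasted, and the tissue is whole liver, so fewer endothelial cells and less miRNA per cell cannot be told apart. For the same reason the cell type in which miR-126 was made could not be checked in these counts.

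miR-126 is the best known miRNA of endothelial cells. It is cut from an intron of Egfl7, a gene for a protein that these cells secrete, and both arms of its hairpin are used. The 3p arm represses Spred1 and Pik3r2, which dampen VEGF signalling, and the 5p arm represses Dlk1, an inhibitor of Notch signalling, in the turnover of vessel lining. The liver holds many such cells in its sinusoids.

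RefSeq places the mouse Mir126a hairpin on the plus strand of chromosome 2, chr2:26591357-26591429 (GRCm38.p6). This position lies inside Egfl7, which the GENCODE annotation of GRCm38 places at chr2:26580014-26593120 on the same strand. It was intronic in 8 of the 19 annotated Egfl7 transcripts, exonic in 1 that retains the intron, and outside the span of the other 10. Mir126b is annotated on the minus strand of the same site. The sequences are shown because both miRNAs share this site and the counts of one cannot be read without the other. In the hairpin the capitals mark miR-126a-3p, at bases 46 to 67 of 73. In miR-126a-3p they mark the seed, bases 2 to 8. In both arms of miR-126b they mark the bases that are the exact reverse complement of the miR-126a hairpin, which are all 23 bases of miR-126b-3p and all 22 bases of miR-126b-5p. No mature entry for miR-126a-5p was in the table used.
mmu-mir-126a hairpin: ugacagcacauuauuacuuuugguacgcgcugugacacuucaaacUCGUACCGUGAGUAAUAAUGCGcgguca
mmu-miR-126a-3p: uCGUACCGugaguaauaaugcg
mmu-miR-126b-3p: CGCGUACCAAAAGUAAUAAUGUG
mmu-miR-126b-5p: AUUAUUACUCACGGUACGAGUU
The seed of miR-126a-3p was carried by none of the other mature mouse miRNAs among the 1679 of that table. miR-126b-3p lies opposite bases 7 to 29 of the hairpin, on its 5p side. miR-126b-5p lies opposite bases 43 to 64 and overlaps miR-126a-3p by 19 bases.

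Library totals ranged from 3725432 to 8139344 counts. They were 5242218 to 8139344 in the reference group, 4340903 to 7220112 in HFoleic and 3725432 to 4947990 in HFepa. The totals of HFepa and of the reference group did not overlap, so depth and group cannot be told apart in that comparison. The part of depth in the results was not tested. The TMM factor, which corrects a library total for its composition, was 1.26 in reference library 3 and 0.93 to 1.13 in all others. That library stood apart in other ways. The summed level of the 5 listed miRNAs of stellate cells and fibroblasts was 2293 CPM (counts per 1000000 counts of the library, scaled with the TMM factors) in it, against 531 to 765 CPM in the other reference libraries. That of the 5 miRNAs of the biliary epithelium was 1094 CPM against 151 to 285 CPM. Most fold changes from the reference group are therefore also given without it, while group levels and list sums include it. Libraries numbered 1 to 11 held the reference mice and 3 HFoleic mice, and those numbered 12 to 23 held 5 HFoleic mice and the HFepa mice. What the number stands for is not given in the labels, and values within each range of numbers are given beside the results. The labels do not give the cut after library 11 either. It was set here, and other cuts were not tested. Where the library number is said to be in the model, the term was this range and not the number itself. miR-122-5p, the miRNA that marks hepatocytes, was at 10802 to 22873 CPM and ranked 9 to 13 among all miRNAs.

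The 5p arm was the more counted of the 2 arms in every library. miR-126a-5p held 67255 to 147470 counts per library, a share of 1.47% to 2.20% of all miRNA counts, and ranked 10 to 14. miR-126a-3p held 9488 to 22123 counts, a share of 0.213% to 0.281%, and ranked 32 to 37. The ratio of 5p to 3p counts lay between 5.48 and 8.80. Each arm is read nearly whole, so these levels were not divided by length. At these counts the counting error of 1 library was at most 1.03% for the 3p arm and 0.386% for the 5p arm. It was small beside the spread between mice of a group, whose coefficient of variation was 6.51% to 8.66% for the 3p arm and 6.70% to 13.8% for the 5p arm.

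The deposited entries of miR-126a-5p and miR-126b-3p held the same counts. They were equal in 19 of 23 libraries, and in the other 4 miR-126b-3p had 1 count more, out of 2140269 counts of miR-126a-5p over all libraries. miR-126b-5p held 0.164 to 0.200 of the count of miR-126a-3p. From these counts alone, reads of miR-126a-5p and of miR-126b-3p cannot be told apart, and values given below for miR-126a-5p are equally values of miR-126b-3p. The same reads therefore entered the library total under both names. Other miRNAs annotated on opposite strands showed the same kind of counts. Among 9 such pairs of other miRNAs that overlap by at least 15 bases and hold at least 1000 counts, the lesser member held at least 10% of the greater in 9 and at least 90% in 4. How the strand was treated in the counting is not given in the sources used here.

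**Figure D1:**
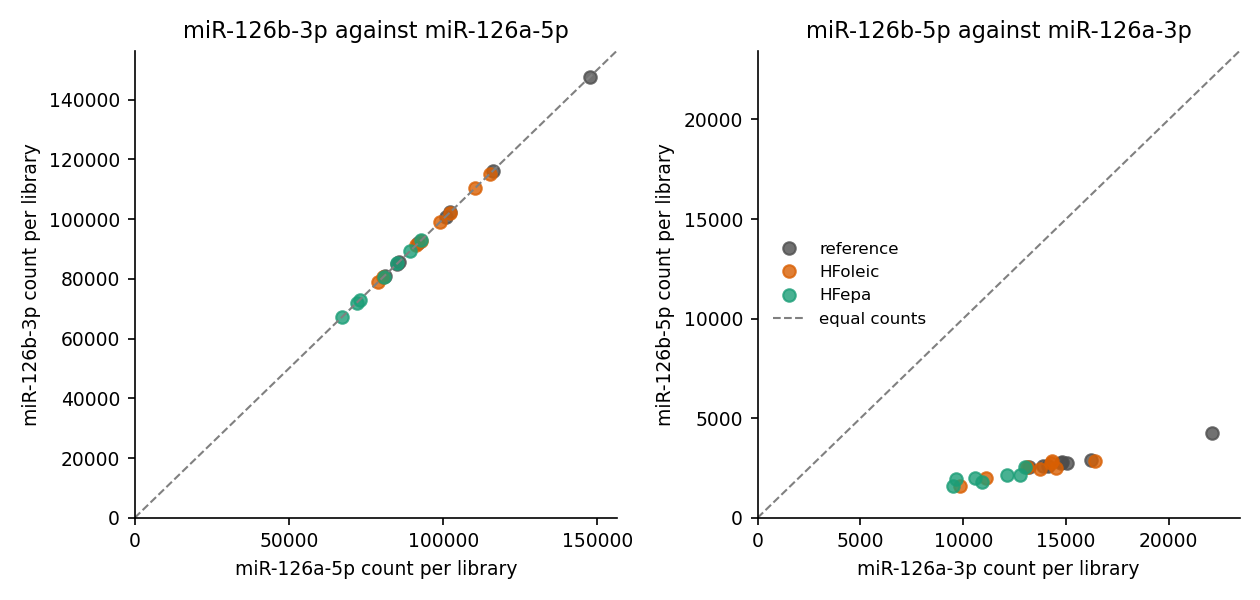
Counts per library of miR-126b-3p against miR-126a-5p (left) and of miR-126b-5p against miR-126a-3p (right), with 1 point per mouse coloured by group and a dashed line where both counts are equal. All 23 points of the left plot lie on the line, and in the right plot the miR-126b-5p count is 0.164 to 0.200 of the miR-126a-3p count.

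The levels of miR-126a-3p overlapped widely between the 3 groups. The lowest, median and highest levels were 2143, 2440 and 2651 CPM in the reference group. They were 2149, 2512 and 2653 CPM in HFoleic. They were 2258, 2672 and 2907 CPM in HFepa. The highest mice were in HFepa, with 4 of 7 HFepa mice and 1 of 8 HFoleic mice above the highest reference mouse. The means ordered as HFepa (2630 ± 228 CPM, SD, n = 7), HFoleic (2467 ± 195, n = 8) and reference (2419 ± 157, n = 8), and no neighbours in this order differed beyond their spread.

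Called miRNAs were those with an adjusted p under 0.05 (Benjamini-Hochberg, over the 386 tested miRNAs) in the quasi-likelihood test of edgeR, and an absolute log2 fold change over 0.25. By this rule 48 miRNAs were called in HFoleic vs. reference, a share of 12.4%, and miR-126a-3p was not one of them. Its log2 fold change there was 0.03 (SE 0.06, 95% interval -0.10 to 0.15, adjusted p = 0.788). In HFepa vs. reference 61 miRNAs were called, a share of 15.8%, and miR-126a-3p was again not called, at a log2 fold change of 0.12 (SE 0.06, interval -0.01 to 0.25, adjusted p = 0.210). In HFepa vs. HFoleic edgeR called 0 miRNAs, a share of 0%, with 22 at an unadjusted p under 0.05, and DESeq2 also called 0. The log2 fold change of miR-126a-3p there was 0.09 (SE 0.06, interval -0.04 to 0.22, adjusted p = 0.901). All 3 intervals end near or below a log2 fold change of 0.25. Without reference library 3 the log2 fold changes were 0.01, 0.10 and 0.09, in the same order.

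miR-126a-5p was higher in HFepa than in the reference group, by an amount close to the fold threshold. Its lowest, median and highest levels were 11742, 16378 and 17674 CPM in the reference group. They were 15945, 17358 and 23349 CPM in HFoleic. They were 17384, 18289 and 20759 CPM in HFepa. All 7 HFepa mice lay above the reference median and 5 of 7 above the highest reference mouse, while 3 of 8 HFoleic mice did. The lowest value of all came from reference library 3 and the highest from HFoleic library 14. The means were 18762 ± 1258 CPM in HFepa (SD, n = 7), 17832 ± 2456 in HFoleic (n = 8) and 15763 ± 1886 in reference (n = 8).

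In HFepa vs. reference the log2 fold change of miR-126a-5p was 0.251 (SE 0.08, 95% interval 0.08 to 0.43, adjusted p = 0.0416 by edgeR's quasi-likelihood test), and it was called. The call was lost without reference library 3, where the log2 fold change was 0.20 with an adjusted p of 0.0480. When the range of library numbers was added to the model, it was 0.0033 and not called, in a fit that called 0 miRNAs in this comparison. Neither range held both HFepa and reference mice, so this value rests on the split of the 8 HFoleic mice. Its error is not given here. In HFoleic vs. reference the log2 fold change was 0.18 (SE 0.08, interval 0.01 to 0.35, edgeR adjusted p = 0.151), which was not called, and 0.13 without reference library 3. In HFepa vs. HFoleic it was 0.07 (SE 0.08, interval -0.10 to 0.25, edgeR adjusted p = 0.968), so a difference between the lineages was not detected. Both comparisons with the reference share its 8 mice.

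**Figure D2:**
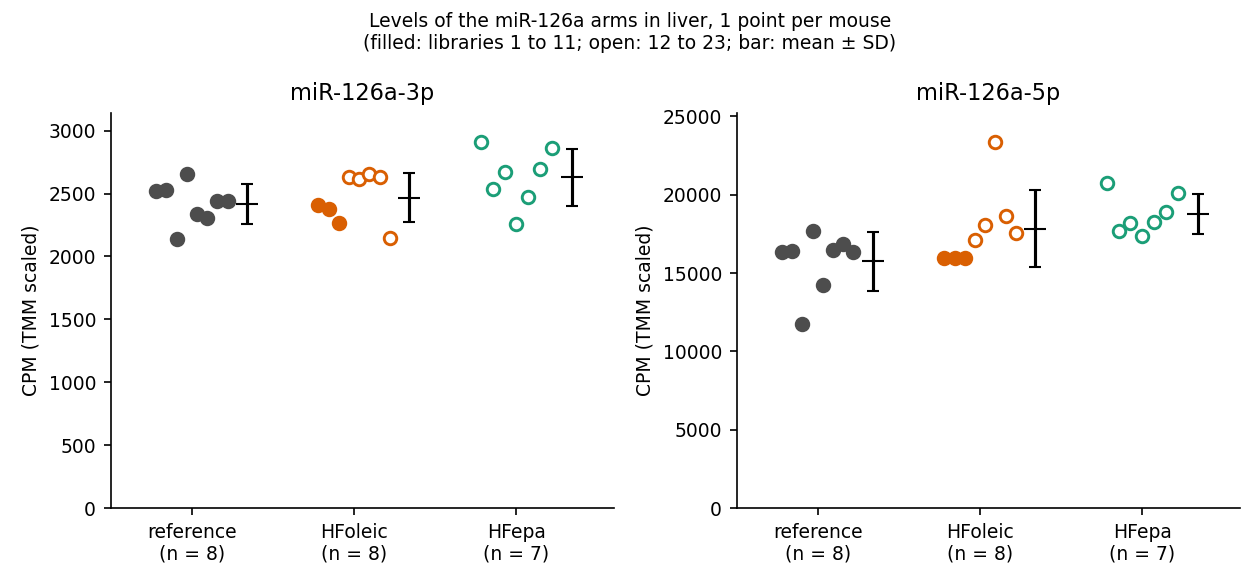
Level of miR-126a-3p (left) and miR-126a-5p (right) in CPM for each mouse, by group, with filled points for libraries 1 to 11, open points for libraries 12 to 23, and the mean ± SD beside each group. The 3p arm overlaps between groups, and the 5p arm of all 7 HFepa mice lies above the reference median of 16378 CPM.

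The HFoleic group was the only one with libraries in both ranges of numbers, and its levels of miR-126a-5p did not overlap between them. How many of the other tested miRNAs also did not overlap was not counted, so this cannot be called particular to miR-126a-5p. The 3 HFoleic mice of libraries 1 to 11 had 15945, 15953 and 15985 CPM. The 5 HFoleic mice of libraries 12 to 23 had 17136 to 23349 CPM, with a median of 18052 CPM. Within libraries 1 to 11, the log2 fold change of HFoleic vs. reference was 0.02 for the 5p arm (edgeR adjusted p = 0.946) and -0.04 for the 3p arm (adjusted p = 0.870). Within libraries 12 to 23, that of HFepa vs. HFoleic was -0.0068 for the 5p arm (edgeR adjusted p = 0.993) and 0.06 for the 3p arm (adjusted p = 0.879). Neither range held both HFepa and reference mice, so for that comparison the value with the library number in the model rests on the split of the 8 HFoleic mice. The 3p arm of HFoleic overlapped between both ranges, at 2266 to 2406 CPM and 2149 to 2653 CPM.

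**Figure D3:**
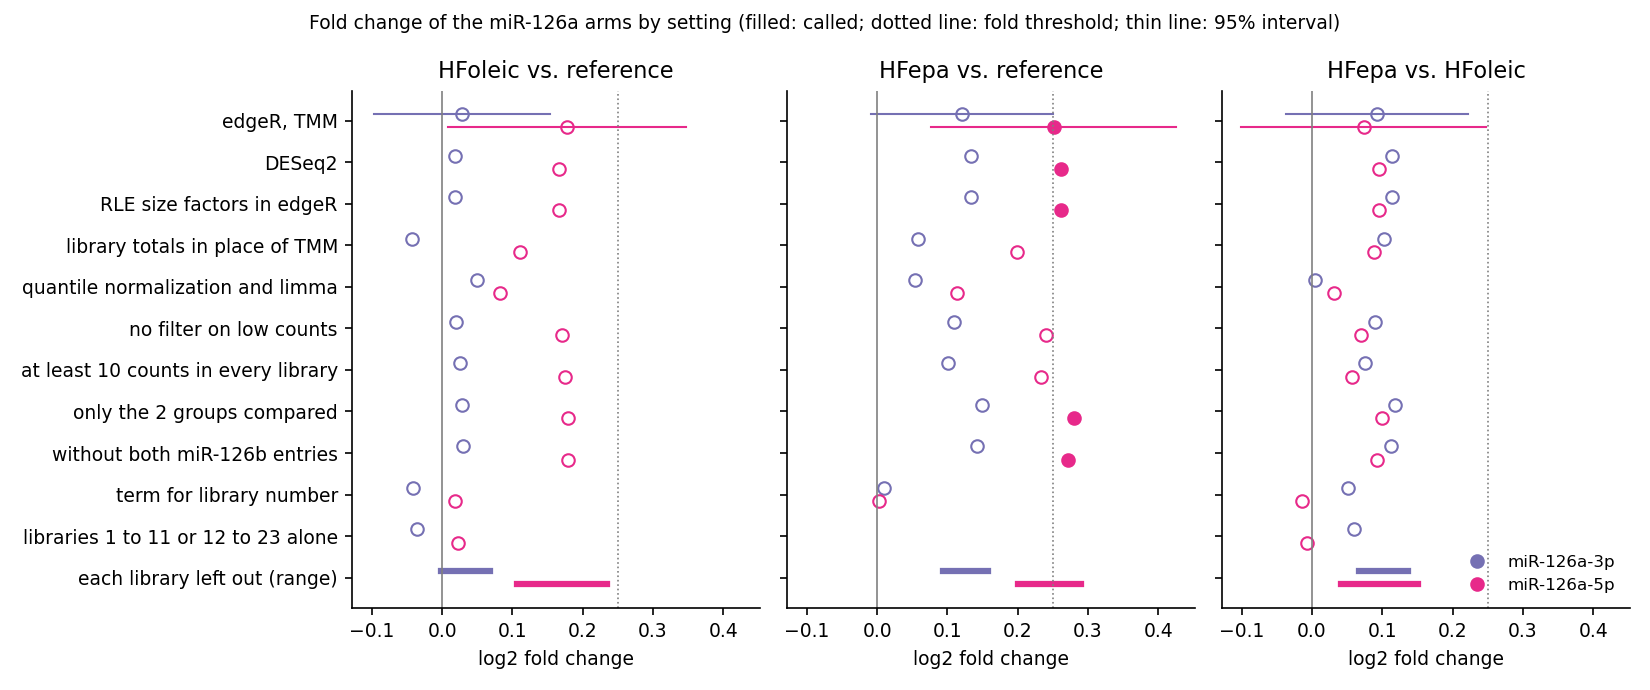
Log2 fold change of miR-126a-3p and miR-126a-5p in the 3 comparisons, by setting, with filled points where the miRNA was called, a dotted line at the fold threshold of 0.25, a thin line for the 95% interval of edgeR with TMM, and thick lines for the range with each library left out. The 5p arm in HFepa vs. reference lies near the threshold in most settings and at 0.0033 with the library number in the model.

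The ratio of both arms within a library depends on neither the library total nor the TMM factor. The log2 ratio of 3p to 5p counts had its lowest, median and highest value at -2.84, -2.72 and -2.45 in the reference group. It was at -3.14, -2.80 and -2.70 in HFoleic. It was at -2.94, -2.81 and -2.77 in HFepa. All 7 HFepa mice and 7 of 8 HFoleic mice lay below the reference median, though the groups overlapped.

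The mean log2 ratio was lower by 0.14 in HFepa than in the reference group (-2.84 ± 0.06 against -2.70 ± 0.12, SD, difference -0.14, SE 0.05), a 3p to 5p ratio 0.907 times that of the reference. A two-sided exact permutation test gave p = 0.00559, and 0.0168 after Benjamini-Hochberg adjustment over 3 comparisons. Without reference library 3, which had the highest ratio of all mice, the difference was -0.11 (adjusted p = 0.0315 by the exact permutation test). For HFoleic the difference from the reference was -0.15 (SE 0.07, exact permutation p = 0.0438, adjusted p = 0.0657), which did not pass the threshold, and it was -0.12 without reference library 3. HFepa and HFoleic differed by 0.01 (SE 0.06, exact permutation p = 0.884). Within libraries 1 to 11, HFoleic differed from the reference by -0.07 (exact permutation p = 0.352, not adjusted). Within libraries 12 to 23, HFepa differed from HFoleic by 0.06 (exact permutation p = 0.432, not adjusted). With a term for the library number, the difference of HFepa from the reference was -0.0082. The part of the library number in these differences was not tested further.

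**Figure D4:**
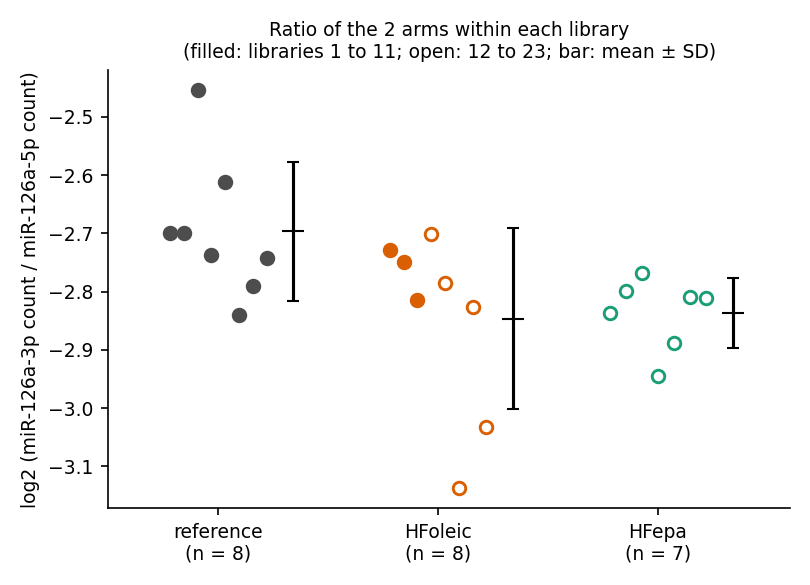
Log2 ratio of miR-126a-3p to miR-126a-5p counts for each mouse, by group, with filled points for libraries 1 to 11, open points for libraries 12 to 23, and the mean ± SD beside each group. All 7 HFepa mice lie below the reference median of -2.72, and the lowest value, -3.14, is that of HFoleic library 14.

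miR-126b-5p, the arm opposite miR-126a-3p, was at 451.6 ± 34.8 CPM in the reference group (SD, n = 8), 451 ± 63.2 in HFoleic (n = 8) and 478 ± 67.3 in HFepa (n = 7). In HFepa vs. reference its log2 fold change was 0.08 (SE 0.09, edgeR adjusted p = 0.657), and in HFoleic vs. reference it was -0.0012, and it was called in none of the 3 comparisons. Without reference library 3 these values were 0.06 and -0.02. Leaving both miR-126b entries out of the table, so that no read of this site entered the totals under a second name, gave miR-126a-5p in HFepa vs. reference a log2 fold change of 0.27 (edgeR adjusted p = 0.0338). For miR-126a-3p this gave 0.14 (edgeR adjusted p = 0.127).

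Among other miRNAs with known roles in endothelial cells, 1 passed the test in any comparison of the model with groups alone. The list held 17 miRNAs, among them both arms of miR-126a and of miR-126b and members of the miR-23, miR-27, miR-24 and miR-221 families, and 16 were tested. In HFoleic vs. reference 0 of the 16 were called, beside 12.4% of all tested miRNAs, and their median log2 fold change was 0.01, beside -0.0024 over all tested miRNAs. In HFepa vs. reference 2 of 16 were called higher and 1 lower, with a median of 0.01, beside -0.06 over all tested miRNAs. The share called, 18.8% of the 16, lay near the 15.8% of all tested miRNAs. The 2 higher ones were miR-126a-5p and miR-126b-3p, which hold the same reads. Without reference library 3 the medians were 0.02 and 0.06, and 0 and 1 of the 16 were called. That fit called 44 and 55 miRNAs in all, and its median over all tested miRNAs is not given here. The 2 calls lost in it were those of miR-126a-5p and miR-126b-3p, both at 0.20 and so under the fold threshold. The miRNA called lower was miR-222-3p, which restrains the proliferation of endothelial cells. Its level was 119 to 155 CPM in the reference group and 75.7 to 97.5 CPM in HFepa, and its log2 fold change was -0.60 (SE 0.16, edgeR adjusted p = 0.0137). In HFoleic it ranged from 84.6 to 195 CPM and had a log2 fold change of -0.17 (edgeR adjusted p = 0.470). In HFepa vs. reference the log2 fold change of miR-222-3p was -0.57 without reference library 3, where it was still called. With the library number in the model it was 0.25 (edgeR adjusted p = 0.723) and not called. In that fit and comparison 0 of all tested miRNAs were called. Another miRNA of the list, miR-210-3p, was called higher in HFoleic vs. reference only with the library number in the model. Its log2 fold change there was 0.75 (edgeR adjusted p = 0.0418), and it was the 1 miRNA called in that fit and comparison. The model with groups alone did not call it, and without reference library 3 that model gave 0.35 (edgeR adjusted p = 0.172), also not called. Reference library 3 was not left out of the fit with the library number. Many of the listed miRNAs are made in other cell types too.

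**Figure D5:**
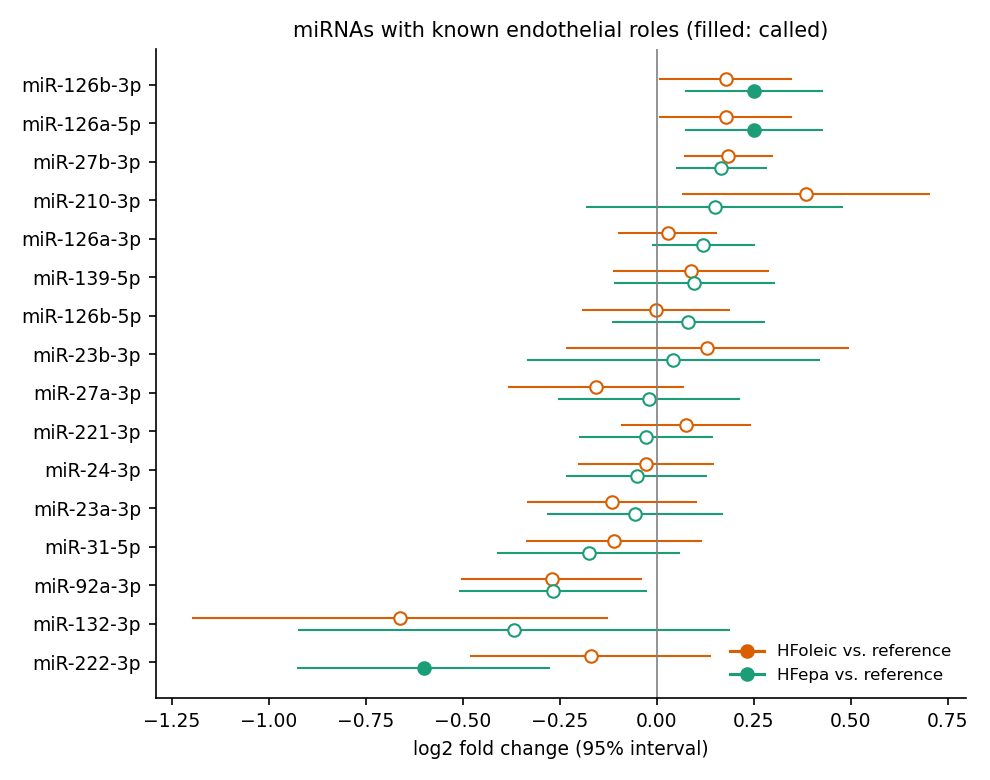
Log2 fold change with its 95% interval for the 16 tested miRNAs with known endothelial roles, in HFoleic vs. reference and HFepa vs. reference, with filled points where the miRNA was called. miR-126a-5p and miR-126b-3p overlie at 0.25 in HFepa vs. reference, and miR-222-3p lies at -0.60.

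Markers of other cells of the liver were read in the same way. miR-511, cut from an intron of Mrc1, a receptor of Kupffer cells and of the sinusoidal endothelium, summed over both arms to 19.4 to 27.6 CPM in the reference group, 20.98 to 28.6 in HFoleic and 14.3 to 34.4 in HFepa. Its 5p arm was called lower in HFoleic vs. reference, at a log2 fold change of -0.46 (SE 0.15, edgeR adjusted p = 0.0482) and a mean level under 10 CPM in each group, and its 3p arm was not called. Of the 6 leukocyte miRNAs, miR-150-5p, a lymphocyte miRNA, was called lower in both comparisons, from 321 ± 102 CPM in the reference group to 167 ± 75.4 in HFoleic and 122 ± 23.6 in HFepa (edgeR adjusted p = 0.0174 and 0.0012). The median log2 fold change of the 6 was -0.25 in HFoleic vs. reference and -0.14 in HFepa vs. reference, and without reference library 3 it was -0.14 and 0.06. The leukocyte list summed to 1760 to 3556 CPM in the reference group, 1533 to 2439 in HFoleic and 1543 to 2445 in HFepa. The 3556 CPM was that of reference library 3, and the next highest reference library had 2800 CPM. Of the 4 smooth muscle miRNAs, miR-145a-3p was called higher in HFepa vs. reference (log2 fold change 0.61, edgeR adjusted p = 0.0396), while the other 3 had log2 fold changes below 0 and the median of the list was -0.08. That list summed to 22872 to 40364 CPM in the reference group, 19424 to 28007 in HFoleic and 22934 to 29835 in HFepa. The 40364 CPM was that of reference library 3, and the next highest reference library had 32545 CPM. Without reference library 3 the median of the list in HFepa vs. reference was 0.02. The median log2 fold change of the 5 biliary miRNAs was -0.38 in HFoleic vs. reference and -0.25 in HFepa vs. reference. Without reference library 3 it was 0.12 and 0.15. Of the 5, miR-429-3p was called lower in HFepa vs. reference (log2 fold change -1.22, edgeR adjusted p = 0.0340), with its highest level, 277 CPM, in the reference group. Without reference library 3 this call was lost (-0.48, edgeR adjusted p = 0.0750) and miR-141-3p of the same list was called higher in HFoleic vs. reference (log2 fold change 0.60, edgeR adjusted p = 0.0447). The calls of miR-511-5p, miR-150-5p and miR-145a-3p held without it. With groups alone 48 miRNAs in all were called in HFoleic vs. reference and 61 in HFepa vs. reference. With the library number in the model only 1 and 0 were called, and none of miR-511-5p, miR-150-5p, miR-145a-3p and miR-429-3p was. There the log2 fold change of miR-511-5p in HFoleic vs. reference was still -0.46 (edgeR adjusted p = 0.437). That of miR-150-5p was -0.36 in HFoleic vs. reference and -0.31 in HFepa vs. reference. miR-429-3p was at -0.75 in HFepa vs. reference, and miR-145a-3p turned to -0.51 there (edgeR adjusted p = 0.723). Calls of 1 of 6, 1 of 4 and 1 of 5 stand beside 12.4% of all tested miRNAs called in HFoleic vs. reference and 15.8% in HFepa vs. reference. None of the 4 red blood cell miRNAs, the 5 stellate cell and fibroblast miRNAs or the 2 hepatocyte miRNAs was called in any comparison. The median log2 fold change of the stellate cell and fibroblast list was -0.42 in HFoleic vs. reference and -0.47 in HFepa vs. reference. Without reference library 3 it was 0.0042 and 0.05. miR-122-5p had a log2 fold change near 0 in both comparisons with the reference. No list summed to 0 in any library. The part of other cell types in the levels of miR-126a was not tested.

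Across the 23 libraries, the miRNA most like miR-126a-3p in log2 CPM was miR-126b-5p (Pearson r = 0.898), which lies opposite to it, followed by miR-29a-3p (0.809), miR-26a-5p (0.769), miR-871-3p (0.744) and miR-1948-3p (0.723). miR-126a-5p came in place 6, with r = 0.716. The median r over all other tested miRNAs was -0.04. For deviations from the group means, the order of the first 4 was the same, from r = 0.920 for miR-126b-5p to 0.703 for miR-871-3p, and miR-126a-5p came in place 5 at 0.681. The miRNAs most like miR-126a-5p were miR-126b-3p (r = 1.0), miR-30e-5p (0.835), let-7c-2-3p (0.835), let-7a-1-3p (0.833) and miR-30a-5p (0.772), with miR-126a-3p in place 10. For its deviations from the group means they were miR-126b-3p, let-7c-2-3p (0.824), let-7a-1-3p (0.823), miR-122b-5p (0.765) and miR-122-3p (0.764). In HFoleic vs. reference, let-7c-2-3p and let-7a-1-3p had near-equal log2 fold changes (0.145 and 0.147). So had miR-122b-5p and miR-122-3p (0.108 and 0.107). Whether the members of each pair hold separate reads was not tested. The points of each correlation share the library, its depth and its scaling, and the values are a description. Without reference library 3 (n = 22), miR-126b-5p stayed first for miR-126a-3p (r = 0.908), and r between both arms was 0.653. The place of miR-126a-5p for miR-126a-3p was then 7, in log2 CPM and in deviations. Among the miRNAs most like miR-126a-5p, miR-126a-3p fell from place 10 to 22, and from 8 to 15 in deviations. For miR-126a-5p, miR-30e-5p then fell from place 2 to 13 (r = 0.707) and miR-30a-5p from place 5 to 29 (r = 0.603), while let-7c-2-3p was in place 4 (r = 0.795). For its deviations, miR-122b-5p fell to place 14 and miR-122-3p to place 13.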

How the data were processed

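The authors made small RNA libraries from total liver RNA, removed adapters (FASTX-Toolkit), mapped reads with Bowtie through ncPRO-seq and annotated them against miRBase. The sources name the genome differently (GRCm38.p6, mm9 and mm10), and the deposited values carry no coordinates. The raw count of each mature miRNA in each library, as deposited by the authors, is the only value used. The authors also deposited a signal per library (the count divided by a size factor) and group means of it. Their log2 fold changes and p-values stand in the deposited table too, and neither these nor the signal columns were used.

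Of 1218 miRNAs, 386 passed edgeR's filterByExpr by group and held 99.98% of the counts. One model was fitted to the 3 groups and 23 libraries with TMM factors, and comparisons were tested with the quasi-likelihood test of edgeR, adjusted by Benjamini-Hochberg. A call needed an adjusted p under 0.05 and, in either direction, a log2 fold change above 0.25. The methods name DEGseq, which was not run because it takes reads and not mice as the error. Group levels are CPM with the TMM factors, as mean ± SD. Log2 CPM used a prior count of 2. The arm ratio was compared by a two-sided exact permutation test of group means, adjusted over 3 comparisons. Library totals ran from 3725432 to 8139344 counts, so counting error is small beside the spread between mice. Reads carry no molecular identifiers, and the counting errors given cover counting only. Replicates are separate mice, and no 2 libraries of a group were alike within sampling noise.

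Named were both arms, list miRNAs as counts per list with single values where called or for miR-122-5p, miR-126b and miR-511, and for each arm the 5 miRNAs nearest in log2 CPM and in deviations from the group means. The miRNAs and the lists were chosen with earlier results of these data known. Alternatives were DESeq2, RLE factors, library totals, quantile normalization with limma, the 2 groups compared alone, a filter of 10 counts in each library, no filter, a term for the library number, libraries 1 to 11 or 12 to 23 alone, each library left out and, for the arm ratio, group medians. Leaving out both miR-126b entries was added after the data were seen, as were, for miRNAs other than both arms, values without reference library 3 or with the library number in the model. The edgeR fit and the permutation test were tested on simulated data. R 4.3.3 with edgeR 4.0.16, DESeq2 1.42.0 and limma 3.58.1 and Python 3.11.15 with pandas 2.3.3, scipy 1.17.1 and matplotlib 3.10.9 were used.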

Additional observations from a re-analysis of the deposited data

Results flagged for a closer look

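The level of miR-126a-5p in HFoleic library 14, 23349 CPM, lay apart from the other 7 HFoleic mice, which had 15945 to 18652 CPM. Its distance to the next mouse was 0.634 of the whole range of the group, past Dixon's critical value for 8 samples. miR-126a-3p in that library was 2653 CPM, and the ratio of 5p to 3p counts, 8.80, was the highest of all libraries. Chance alone flags about 1 in 20 groups, and 9 groups of values were examined. Without that library the log2 fold change of miR-126a-5p was 0.11 in HFoleic vs. reference and 0.15 in HFepa vs. HFoleic.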

How the results depend on the processing

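The call of miR-126a-5p in HFepa vs. reference (log2 fold change 0.251) held with DESeq2, RLE factors, only the 2 groups, and both miR-126b entries left out. It was lost with library totals (0.20, edgeR adjusted p = 0.0399, under the fold threshold), at least 10 counts in every library (0.23, edgeR adjusted p = 0.0461, under the fold threshold), no filter (0.24), quantile normalization with limma (0.11) and the term for the library number (0.0033). With each library left out it ranged from 0.20 to 0.29 and was called in 16 of 23 fits, losing the call without reference library 3 or 5 or HFepa library 16, 18, 20, 21 or 22. In HFoleic vs. reference, miR-126a-3p (0.03) turned to -0.043 with library totals, -0.042 with the term for the library number and -0.035 in libraries 1 to 11 alone, and ranged from -0.0019 (without reference library 5) to 0.068. In HFepa vs. HFoleic, miR-126a-5p (0.07) turned to -0.015 with the term for the library number and -0.0068 in libraries 12 to 23 alone. None of the reversed values was called before or after.

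The lower log2 arm ratio in HFepa vs. reference (-0.14) stayed past the threshold in all 23 fits that leave out a library (-0.16 to -0.11). It did not pass with group medians (-0.094, exact permutation adjusted p = 0.106) and was -0.0082 with the term for the library number. In HFoleic vs. reference it ranged from -0.17 to -0.11 and passed the threshold without reference library 6 or HFoleic library 12. In HFepa vs. HFoleic it was -0.012 with group medians and ranged from -0.031 to 0.031, turning negative without HFoleic library 14 or 23 or HFepa library 18. The cause of these changes was not tested. The number of called miRNAs in HFoleic vs. reference (48) was 25 with DESeq2, 10 with quantile normalization, 29 with no filter, 7 with only the 2 groups, 1 with the term for the library number and 0 in libraries 1 to 11 alone. In HFepa vs. reference (61) it was 24 with quantile normalization, 40 with only the 2 groups and 0 with the term for the library number. With each library left out these counts ranged from 12 to 53 and from 32 to 66, and from 0 to 1 in HFepa vs. HFoleic (1 without HFepa library 19), falling more than 1.5 times without reference library 5 in both comparisons with the reference (12 and 36), without HFoleic library 13, 14 or 15 in the first (24, 21 and 20) and without HFepa library 16, 18 or 22 in the second (38, 38 and 32). No paired analysis was possible because the labels give no number that links mice across groups.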
